A study of Mus musculus with 16 samples.

Results

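Infiltrating cells of a subcutaneous mouse tumour, enriched on a density gradient, were compared with blood of mice with the same kind of tumour, using the Cy5 channel of 2-colour Agilent mouse arrays alone. The comparison takes in all 16 arrays of the series, 8 of the infiltrating fraction and 8 of blood, matched by the number in the sample names (889, 890, 891, 893, 894, 896, 897 and 898). Hepa1-6, a mouse hepatoma cell line, had been injected under the skin of mice that the treatment text calls C57Bl/6 athymic and the strain field C57Bl/6, all labelled female; no age is used here. Blood and tumours were collected after 10 days. Blood went straight into RNAlater and its RNA was taken with an Ambion blood kit, whereas tumours were mashed, the fraction was obtained on a density gradient, and its RNA was taken with a Stratagene kit. The RNA kit, the handling and the slide therefore changed together with the group, and their effects cannot be told apart from it. Cy3 carried blood RNA of untreated female C57Bl/6 mice on every array, and dyes were not swapped. The labels do not say that arrays with the same number came from one mouse, and the p-values measure the spread between these samples.

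As background, a growing tumour draws in monocytes, which become macrophages, together with lymphocytes and granulocytes, in answer to chemokines made by tumour and host cells. Whole blood RNA is dominated by transcripts of young red cells, with platelets, neutrophils and B cells as further sources. A density gradient fraction of a mashed tumour can hold tumour cells, stromal cells and leukocytes side by side, so that a transcript in it has no single known source.

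Hepatoma, chemokine, macrophage, matrix protease and glycolysis transcripts were mostly higher in the fraction than in blood, and transcripts of red cells, platelets and B cells mostly lower. Afp, the alpha-fetoprotein made by fetal liver and hepatoma cells, read 35.6 to 79.5 units in blood (median 60.1) and 67254 to 337814 units in the fraction (median 232619). Units are background-subtracted scanner intensities before any scaling. The groups were far apart for this gene, and its difference was 7.80 ± 0.14 log2 (fraction minus blood, SE over 8 pairs; limma adjusted p = 7.8e-11). Ppbp, a chemokine stored in platelets, read 10849.5 to 34477 units in blood (median 17192) and 488 to 1343 in the fraction (median 876), and fell by 7.02 ± 0.08 log2 after quantile normalisation (limma adjusted p = 9.7e-12; −4.40 log2 unscaled). In bulk RNA of this kind, fewer cells of a type and less RNA per cell cannot be told apart.

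**Figure D1:**
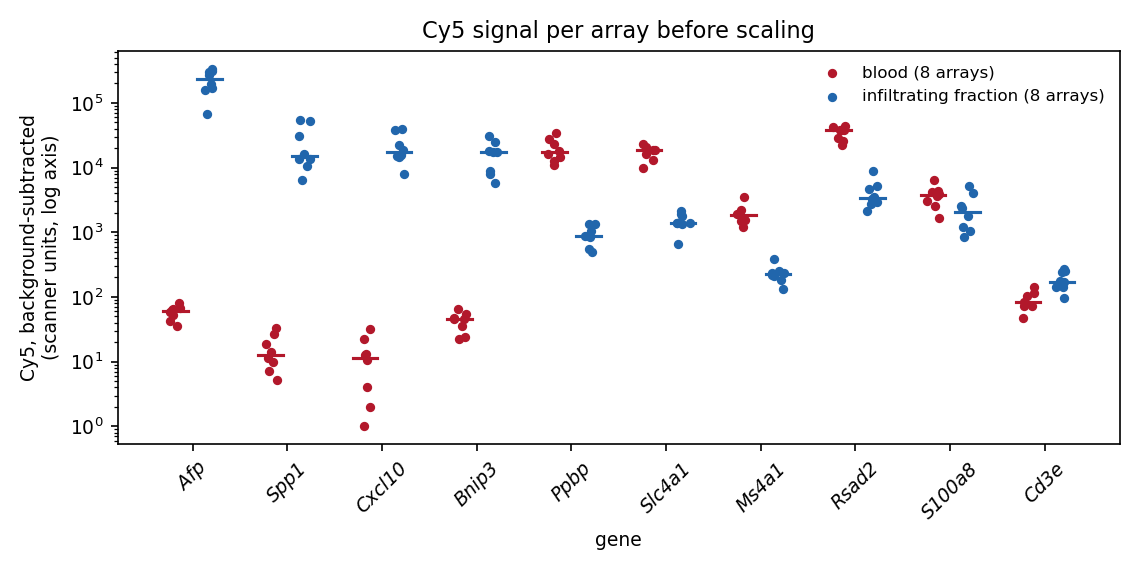
Background-subtracted Cy5 signal of 10 genes on each array, in scanner units on a log axis, with values under 1 drawn at 1; points are arrays (8 of blood in red, 8 of the infiltrating fraction in blue) and lines are medians. The groups are separate for Afp to Rsad2, with Afp at 35.6 to 79.5 units in blood and 67254 to 337814 in the fraction, and overlap for S100a8 and Cd3e.

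The Cy3 channel did not behave as the same RNA on every array. On the 8 fraction arrays it gave signal for genes of liver and tumour although its label is untreated blood: Alb, serum albumin, read 10.5 to 19.5 Cy3 units on the blood arrays and 4658 to 12194 on the fraction arrays, a Cy3 difference of 7.79 ± 0.12 log2 (limma adjusted p = 1.0e-09). Of 187 probes that were dark in both channels on the blood arrays and above 2000 units in Cy5 of the fraction, 184 (98.4%) were well above background in Cy3 on at least 4 fraction arrays, with a median Cy3 signal per array of 1.67% to 7.91% of their Cy5 signal. The same test run on the Cy3 channel called 1529 of 10504 genes (14.6%), 1166 higher and 363 lower on the fraction arrays. Because Cy3 signal itself differed with the group, this share is not a rate of false calls. Cy3 values are given beside the Cy5 results below. The part of Cy3 in the Cy5 results was not tested. Cy3 values were also quantile normalised and raised to a common floor, so the Cy3 difference of a dim gene can be a lower bound.

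The arrays of the groups also differed in overall brightness. In Cy5, 24.8% to 36.3% of probes were well above background on blood arrays and 51.1% to 65.8% on fraction arrays, and the 75th percentile was 23.5 to 45.5 units against 239 to 1126. The 10 brightest probes took 18.9% to 23.6% of the signal in blood and 3.36% to 5.59% in the fraction, and 9 globin probes took 7.49% to 11.4% and 0.352% to 0.555%. Spike-in control spots read 2749 to 5378 units in blood and 4337 to 14710 in the fraction. Replicates correlated at 0.947 to 0.989 in blood and at 0.95 to 0.993 in the fraction, and arrays of different groups at 0.57 to 0.68, across probes, which are not independent replicates.

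Of 8727 genes tested after quantile normalisation, 3756 (43%) were called at a limma adjusted p under 0.05 and a change of at least 2-fold, 2217 (25.4%) higher and 1539 (17.6%) lower in the fraction. All 8 pairs moved the same way for 2193 of the higher and 1487 of the lower genes. The direction of many calls rested on the scaling. Scaling to the spike-in controls called 7862 genes higher and 566 lower, with 388 of the main calls turned round, and leaving arrays unscaled called 9253 higher and 336 lower, with 727 turned round. The median difference of all genes was 0.18 log2 with quantiles, 0.15 with median scaling, 0.29 with scaling to the 75th percentile, 0.10 with cyclic loess, 2.94 with spike-in scaling and 4.27 unscaled, and each difference below is best read against these shifts. A fall can be larger, and a rise smaller, with quantiles than the printed units give, as in Ppbp and Afp. Genes called in one direction under all 6 scalings are called stable below: 1867 were (21.4%), 1527 higher (17.5%) and 340 lower (3.9%). Of these, 934 higher and 217 lower genes differed by less than 2-fold in Cy3 after its quantile normalisation and floor. Counts of list members below are best read against the shares of all genes given here, and a count near them is not particular to its list. The same holds for members also called in Cy3: 721 of the 2217 higher and 298 of the 1539 lower genes were called the same way there.

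**Figure D2:**
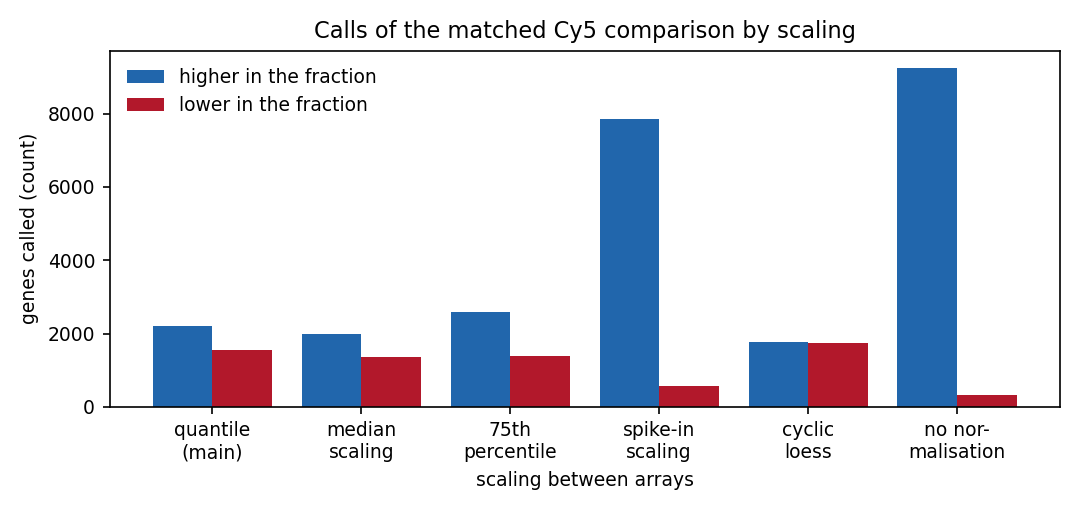
Number of genes called higher (blue) or lower (red) in the infiltrating fraction than in blood by the matched Cy5 test under 6 ways of scaling the arrays to each other. The quantile fit gave 2217 higher and 1539 lower, and the unscaled fit 9253 higher and 336 lower.

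Hepatoma and hepatocyte genes had the largest median rise of the lists under each of the 6 scalings. Of 16 tested members of a list of 27, 10 rose and 0 fell, all 10 stable, against 17.5% of all genes, and the median difference was 3.75 log2 against 0.18 for all genes. Alb read −2.5 to 20 units in blood, where it was not well above background on any array, and 41421 to 266831 in the fraction. After scaling, all blood arrays lay at a common floor of 363.3 units for Alb, so its difference is a lower bound, which moved with the scaling. For a single gene, "at least" is followed by the smallest fold of the 6 scalings, which was 161 for Alb. Genes at the floor after scaling but well above background on most arrays of both groups are given by their fold with quantiles and unscaled instead, and a gene that was not called or not stable may also lie at the floor in one group. The same held for Rbp4, the plasma carrier of retinol (at least 170-fold), and for Igfbp1, an insulin-like growth factor binding protein secreted by liver, with the largest difference of any gene named here (at least 403-fold; 137298 to 516542 units in the fraction). Krt18 and Krt8, partner keratins of simple epithelia and hepatocytes, rose by 7.46 ± 0.18 and 5.64 ± 0.20 log2. Fgb, the fibrinogen beta chain, rose by 3.87 ± 0.12 and Trf, transferrin, by 5.02 ± 0.14. Foxa2, a transcription factor of the hepatocyte programme, rose at least 17.7-fold. The 6 tested members that were not called were Foxa3 (0.35), Apoa1 (0.09), Igf2 (0.08), Vtn (0.08), Fgg (0.08) and Ahsg (−0.13).

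Of the 10 members that rose, 9 were also called higher in Cy3, with Afp at 3.91 and Krt18 at 7.12 log2. Foxa2, at 0.84 ± 0.09 log2 in Cy3 after the floor, was not called there. Before scaling, its Cy3 signal was 7.6 to 13.9 units on blood arrays and 46 to 103.75 on fraction arrays, without overlap. The list summed to 194 to 470 units in blood and 238048 to 1280400 in the fraction, so the fraction labelled as infiltrating cells carried hepatoma transcripts on all 8 arrays. Which cells of the fraction any other change came from was not tested. Lsr, a lipoprotein receptor of epithelia and liver (5.86 ± 0.19 log2), Mt2, a metal-binding metallothionein (5.84 ± 0.25), and Phlda1, a stress-induced protein (5.68 ± 0.14), completed the largest rises outside the lists, and were higher in Cy3 too, by 3.72, 4.06 and 3.10 log2.

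Red cell genes had the lowest median of the lists under each of the 6 scalings. Of 21 tested erythroid genes 19 fell and 0 rose, 18 of them stable, against 3.9% of all genes, with a median of −4.37 log2. Tspo2, an erythroid cholesterol-binding protein, read 8508 to 22904 units in blood and 336 to 1088 in the fraction (medians 16794 and 776). It fell by 7.09 ± 0.09 log2 with quantiles (limma adjusted p = 1.7e-11) and by 4.40 unscaled, with no overlap. Slc4a1, the band 3 anion exchanger of the red cell membrane, read 9804 to 23051 and 669.5 to 2138 units, and fell by 6.15 ± 0.11 log2 (7 pairs, since a flagged spot removed 1 array). Ank1, which encodes the ankyrin of the membrane skeleton, fell 50.4-fold with quantiles and 22.5-fold unscaled by its brightest probe. Its dimmer probes gave −2.92 log2 with quantiles, called lower, and −0.35, not called.

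Of the haem and globin genes, Hba-a1 and Alas2 fell by less than the list median and Fech by more. Hba-a1, an alpha globin, read 223116 to 422529 units in blood and 29452 to 132607 in the fraction, a fall of 3.05 ± 0.10 log2. Alas2, the first enzyme of erythroid haem synthesis, fell by 2.21 ± 0.10, and Fech, the last enzyme of the pathway, by 4.84 ± 0.14. Epb42, a band 3 partner, was well above background on all 8 blood arrays and on 0 fraction arrays, and fell at least 9.51-fold. Hbb-bh1, an embryonic-type globin, showed the same pattern (at least 6.47-fold), as did Eya4 (at least 6.41-fold) and Olfr693, an olfactory receptor gene (at least 6.06-fold). Gata1 (−0.86) and Car1 (−0.34) were not called. In Cy3, 0 of the 19 erythroid genes were called, and the list median was −0.56 log2.

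Platelet genes fell with them. Of 15 tested, 14 fell and 0 rose, 11 stable, against 17.6% and 3.9% of all genes, with a median of −3.91 log2. Gp9, Gp1ba, Gp1bb and Gp5 encode the receptor complex for von Willebrand factor. Gp9 read 2920.5 to 8406 units in blood against 72 to 254, and fell 77.2-fold with quantiles and 26.7-fold unscaled. Gp1ba fell 18.6-fold with quantiles and 14.7-fold unscaled, Gp1bb 9.84-fold with quantiles and 4.77-fold unscaled, and Gp5 at least 7.68-fold. Treml1, a receptor of platelet alpha granules, fell 70.6-fold with quantiles and 8.1-fold unscaled, and Clec1b, the platelet podoplanin receptor, by 4.70 ± 0.14 log2. Pf4, platelet factor 4, read 18106 to 48988 units in blood and 5473 to 31454 in the fraction, where the ranges overlapped before scaling, and fell by 3.38 ± 0.12 log2. F13a1, the A chain of factor XIII, was −2.64 log2 with quantiles and 0.07 under spike-in scaling. Vwf, von Willebrand factor, made by platelets and endothelium, read 2196 to 6352 against 269 to 942 units. It fell 59.8-fold with quantiles, where the fraction lay near the floor, and 5.66-fold unscaled. In Cy3, 1 of the 14 was called lower.

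The other large falls included Kcnh6, a potassium channel gene (155-fold with quantiles and 27.5-fold unscaled), and Olfr1495, an olfactory receptor gene (115-fold and 48.5-fold). Fhl1, a LIM domain protein gene, fell 115-fold and 20.1-fold on these scales, and Fchsd1 90.3-fold and 12-fold. With quantiles, the fraction means of these genes lay at or near the floor. Fam83f (84.6-fold with quantiles and 11.4-fold unscaled) and 2610524H06Rik (86.7-fold and 10-fold) followed. Each was stable, and Kcnh6 read 9124 to 24769.9 units in blood and 291 to 824 in the fraction. In Cy3, Olfr1495 (−1.72 log2), 2610524H06Rik (−1.12) and Fam83f (−1.05) were called lower too, whereas Kcnh6 (−0.88), Fchsd1 (−0.69) and Fhl1 (−0.25) were not called.

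B cell genes were lower in the fraction. Of 17 tested, 15 fell and 0 rose, of which 8 were stable, against 17.6% and 3.9% of all genes. The median was −2.77 log2, −1.90 under spike-in scaling and −0.82 unscaled. Ms4a1, which encodes CD20, read 1200 to 3471 units in blood and 132 to 392 in the fraction, a fall of 38.4-fold with quantiles and 8.32-fold unscaled (limma adjusted p = 4.1e-10). Cd79b, which signals for the antigen receptor of B cells, read 1646 to 3820 and 709 to 1686 units and fell by 4.65 ± 0.09 log2. Fcmr, an IgM receptor, fell 23.3-fold with quantiles and 2.84-fold unscaled. Pou2af1, a B cell transcriptional coactivator, fell 16.6-fold and 2.95-fold on the same scales, and Tnfrsf13c, the BAFF receptor, 9.35-fold and 2.42-fold. Blnk, an adaptor of antigen receptor signalling in B cells, was −1.77 log2 with quantiles and 0.71 under spike-in scaling, which turned its direction.

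T cell genes had no stable change. Of 17 tested, 8 were called lower with quantiles and 0 higher, where 17.6% of all genes were called lower. The list median of −0.91 log2, however, became 1.87 under spike-in scaling and 3.28 unscaled. Cd3e, part of CD3, read 47.5 to 145 units in blood and 95.5 to 274 in the fraction, ranges that overlapped, with −1.61 ± 0.07 log2 after quantiles and 1.05 unscaled. After quantiles all 8 fraction arrays lay at the floor for Cd3e, so this SE rests on the spread of blood. Il7r, the interleukin 7 receptor, read 178 to 409 units in blood and 1086 to 3881 in the fraction, −1.79 log2 with quantiles but 1.17 under spike-in scaling. Ccr7, the lymph node homing receptor, was −2.77 log2 with quantiles and 1.05 unscaled. The list summed to 2403 to 4817 units in blood and 29615 to 84326 in the fraction.

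Some cytotoxic effector genes and most checkpoint genes rose. Of 15 NK and cytotoxic genes 6 rose and 0 fell, 5 stable, where 25.4% of all genes were called higher and 17.5% stably so. Ifng, interferon gamma, read 20.5 to 44 units in blood and 10360 to 43538 in the fraction. It rose by 5.22 ± 0.25 log2 (limma adjusted p = 4.8e-08), with blood near the floor. Its Cy3 difference was 6.33 ± 0.24 log2, and in the ratio of the channels its direction turned (−0.81). Gzmb, granzyme B, rose by 3.56 ± 0.21, Il2rb, the interleukin 2 receptor beta chain, by 1.94 ± 0.13, and Prf1, perforin, by 1.64 ± 0.31 in 7 of 8 pairs. Klrd1 (0.73), Gzma (0.04) and Klrb1c (−0.16) were not called.

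Of 10 tested regulatory T cell and checkpoint genes 7 rose and 0 fell, 6 stable, against 25.4% higher and 17.5% stably higher among all genes. The list members Foxp3, Il2ra and Ikzf2 had probes but did not qualify for testing. Pdcd1, which encodes PD-1, rose at least 8.77-fold (3187 to 13429.5 units in the fraction), and Havcr2, which encodes TIM-3 and was well above background on 1 blood array, at least 6.42-fold. Cd274, which encodes the PD-1 ligand PD-L1, read 56 to 177 units in blood and 5080 to 32956 in the fraction and rose by 2.48 ± 0.18 log2. Lag3, another inhibitory receptor, rose at least 2.13-fold, and Ctla4 (0.16) was not called. In Cy3, 6 of the 7 were called higher, as were 5 of the 6 cytotoxic genes. Tnfrsf18, which encodes GITR, rose by 1.39 ± 0.08 and Nkg7, a cytotoxic granule protein, by 1.45 ± 0.18, with Cy3 at 0.22 and 0.81.

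Macrophage genes rose unevenly. Of 17 monocyte and macrophage genes 11 rose and 0 fell, 8 stable, against 25.4% and 17.5% of all genes, with a median of 1.19 log2. The complement gene C1qc, made by tissue macrophages, read 3.5 to 23 units in blood and 10783 to 57139 in the fraction, at least 30.6-fold higher, and its partner C1qa was at least 6.77-fold higher. Gpnmb, a glycoprotein of phagocytes, rose at least 5.96-fold, Mrc1, the mannose receptor, at least 4.43-fold, and Trem2, a lipid-sensing receptor, by 2.86 ± 0.16 log2. Lgals3, galectin 3, rose by 3.51 ± 0.14. Adgre1, the F4/80 antigen, read 91.5 to 252 units in blood and 3114 to 18087 in the fraction and rose by 1.19 ± 0.24 in 7 of 8 pairs, with 0.99 under cyclic loess, where it lost its call. Csf1r, the receptor for macrophage growth factors, at 0.80 ± 0.10, was not called with quantiles, nor were Lyz2 (−0.21), Itgam (0.02) and Ccr2 (−0.02). These values are of the brightest probe, and a dimmer probe of Lyz2 was called lower (−2.79). Of the 11 that rose, 5 were called higher in Cy3.

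Genes of alternative activation and suppression showed a similar split. Of 16 tested, 7 rose, all stable, and 3 were called lower, of which 0 were stable. Among all genes, 17.5% were stably higher and 17.6% were called lower, so the lower count lay near that share. Spp1, the secreted phosphoprotein osteopontin, read 5.25 to 33 units in blood and 6389 to 54120.1 in the fraction (medians 12.8 and 14840), at least 22.6-fold higher (limma adjusted p = 1.6e-08), with 0.69 ± 0.11 log2 in Cy3. Arg1, arginase 1, was at least 23.2-fold higher, and its Cy3 difference was 5.31 log2. Fn1, fibronectin, rose at least 15.2-fold, Vegfa, an angiogenic factor, at least 6.71-fold, and Ido1, a tryptophan-degrading enzyme, at least 4.3-fold in 7 of 8 pairs. Hmox1, haem oxygenase 1, rose by 3.77 ± 0.12 log2. Chil3 (0.35) and Arg2 (−0.31) were not called.

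Neutrophil genes had no stable change. Of 15 tested, 10 were called lower with quantiles and 0 higher, and 0 were stable, where 17.6% of all genes were called lower. The list median was −1.82 log2 with quantiles, −0.16 under spike-in scaling and 0.71 unscaled. S100a8, a subunit of calprotectin, read 1675 to 6372 units in blood and 842 to 5229 in the fraction, overlapping ranges, and was −4.33 ± 0.17 log2 with quantiles and −0.82 unscaled, below 0 under all 6 scalings. Its partner S100a9 read 25048 to 74457 and 8442 to 71551 units, which overlapped as well. Cxcr2, the neutrophil receptor for CXC chemokines, read 129 to 522 and 112 to 799.5 units, −3.15 ± 0.14 with quantiles and −0.01 unscaled. With quantiles its fraction mean lay near the floor.

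Dendritic cell genes split. Of 8 tested, 4 rose and 2 fell, all 6 stable, against 17.5% stably higher and 3.9% stably lower among all genes. Zbtb46, a transcription factor of classical dendritic cells, read 495 to 1557 units in blood and 13 to 89.5 in the fraction, 21.3-fold with quantiles and 14.1-fold lower unscaled. Xcr1, the receptor that marks cross-presenting dendritic cells, was 4.06-fold lower with quantiles and 2.4-fold unscaled, and was also lower in Cy3 (−2.30). Clec10a, a lectin of dendritic cells and macrophages, rose by 3.60 ± 0.25 log2, Itgax, which encodes CD11c, by 2.96 ± 0.11, and Irf8 by 1.38 ± 0.07. Of 9 MHC class II genes 8 were not called, among them H2-Ab1 (0.32) and Cd74 (−0.56), where 43% of all genes were called. H2-Oa, a modulator of peptide loading, was −3.31 with quantiles and 0.66 unscaled. Of 9 mast cell, basophil and eosinophil genes 3 were called lower, 0 stable, where 17.6% of all genes were called lower. Hdc, histidine decarboxylase, turned from −1.59 with quantiles to 1.26 under spike-in scaling, and Cma1, a chymase, from −1.21 to 0.71.

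Chemokine ligands rose as a group. Of 20 tested, 17 rose and 1 was called lower, with 13 of the rises stable, against 17.5% of all genes, and the median was 2.52 log2. Among the CC ligands, Ccl24, an eotaxin, read 5.5 to 23 units in blood and 41446 to 246844 in the fraction, at least 137-fold higher. Ccl3, a ligand of CCR1, rose by 5.53 ± 0.12 log2 (limma adjusted p = 2.6e-10) and its relative Ccl4 by 5.13 ± 0.17. Ccl8 was at least 31.8-fold and Ccl2, the main ligand of CCR2, at least 22.4-fold higher. Of the interferon-induced ligands of CXCR3, Cxcl10 read 1 to 32.5 units in blood and 7959 to 38769.9 in the fraction, at least 22.4-fold higher, and Cxcl9 was at least 16.9-fold higher. The neutrophil attractants Cxcl3 and Cxcl1 were at least 5.95-fold and 1.77-fold higher, Cxcl1 not stably, and Cxcl2 rose by 2.02 ± 0.22 log2. Cx3cl1, the membrane-bound ligand of CX3CR1, was at least 22.3-fold higher. Ccl19, a ligand of CCR7, was −2.55 log2 with quantiles and 0.06 unscaled. In Cy3, 9 of the 17 were called higher, with Ccl24 at 6.71 and Cxcl10 at 1.18 log2. Ccl9, Ccl12, Cxcl2 and Cxcl3 were stable and had Cy3 differences of 0.27, 0.01, 0.13 and 0.69.

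The receptors moved both ways, with 4 of 13 higher (3 stable) and 6 lower (3 stable). The higher counts lay near the shares of all genes, which were 25.4% higher (17.5% stable) and 17.6% lower (3.9% stable). Cxcr6 rose by 2.93 ± 0.17 log2 and Ccrl2, a chemerin-binding receptor, at least 5.91-fold. Cxcr5, the B cell follicle homing receptor, fell 10.6-fold with quantiles and 2.62-fold unscaled, and Ccr6 9.37-fold and 3.37-fold on the same scales. Inflammatory cytokine genes were mostly not called: of 12 tested, Il1rn, the interleukin 1 receptor antagonist, rose by 2.13 ± 0.14 log2, and Il27 was at −1.24 with quantiles and 0.23 unscaled. Tnf (0.16), Il1b (−0.32) and Tgfb1 (−0.98) were not called.

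**Figure D3:**
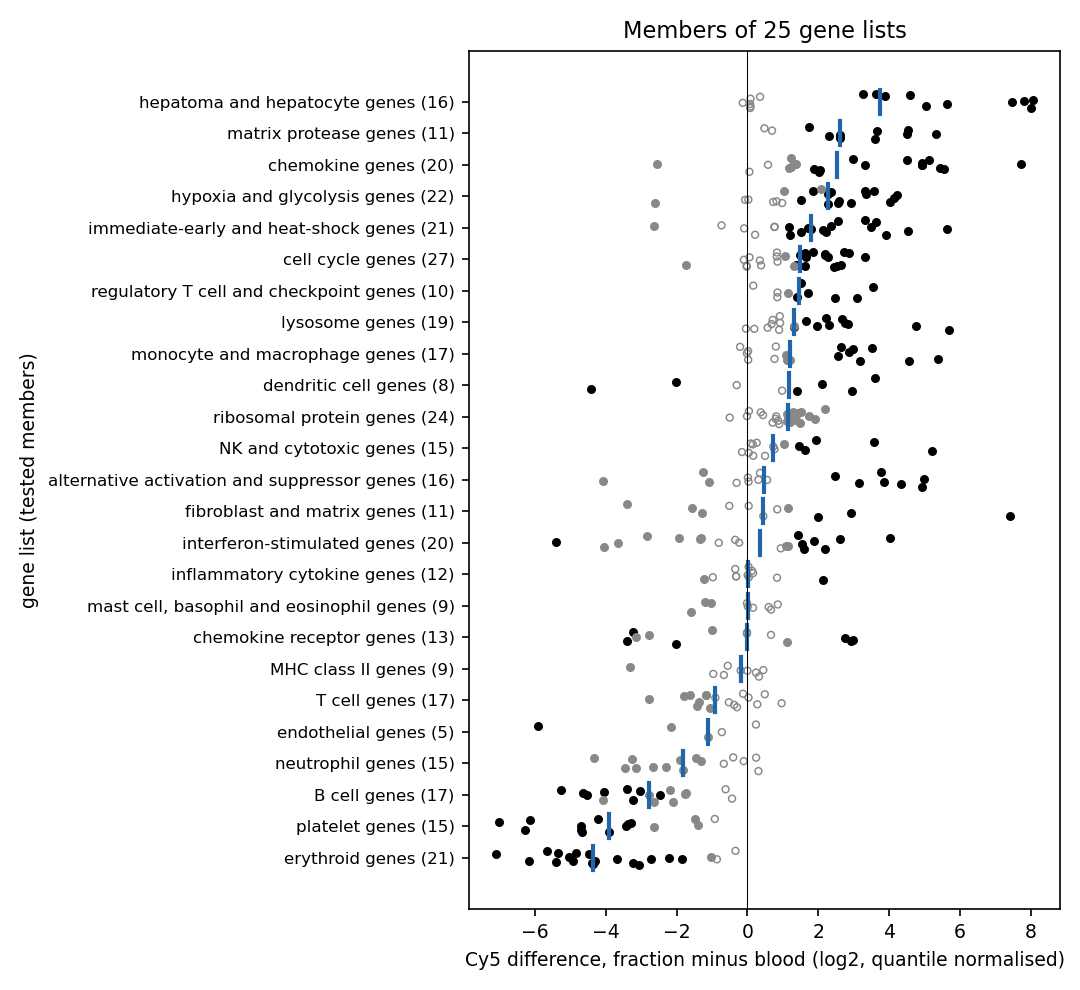
Cy5 difference (fraction minus blood, log2, quantile normalised) of each tested member of 25 gene lists, ordered by the list median (blue line), with the number of tested members in brackets. Filled black points were called in one direction under all 6 scalings, grey points were called with quantiles but not in one direction under all 6, and open points were not called; medians run from −4.37 log2 in erythroid genes to 3.75 in hepatoma and hepatocyte genes.

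Interferon-stimulated genes were called in both directions with quantiles, but of the lower calls only Rsad2 was stable. Of 20 tested, 9 rose (7 stable) and 7 were called lower (1 stable), with a median of 0.35 log2 against 0.18 for all genes. Among all genes, 25.4% were called higher (17.5% stable) and 17.6% lower (3.9% stable). The stable lower count lay near its share. The windows upstream of a few members are printed because members called in opposite directions with quantiles share a motif. Each holds the 250 bases before a transcription start, on the gene's strand, from RefSeq on GRCm38.p6. Capitals mark matches, on either strand, to TTTC, any 2 bases and TTTC (the core of the interferon-stimulated response element, ISRE) or TTCNNNGAA (the interferon gamma activated site, GAS).
Rsad2, chr12:26456453-26456702, minus strand: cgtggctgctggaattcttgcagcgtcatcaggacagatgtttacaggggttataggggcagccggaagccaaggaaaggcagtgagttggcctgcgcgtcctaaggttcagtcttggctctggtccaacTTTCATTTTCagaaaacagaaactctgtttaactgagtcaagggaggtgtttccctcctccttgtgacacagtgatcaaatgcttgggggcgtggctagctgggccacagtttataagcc
Isg15, chr4:156200819-156201068, minus strand: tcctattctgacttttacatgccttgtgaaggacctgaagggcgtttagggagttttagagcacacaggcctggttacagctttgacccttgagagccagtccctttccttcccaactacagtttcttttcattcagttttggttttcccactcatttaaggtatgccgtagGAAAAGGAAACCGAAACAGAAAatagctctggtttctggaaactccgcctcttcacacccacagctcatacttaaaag
Gbp2, chr3:142620413-142620662, plus strand: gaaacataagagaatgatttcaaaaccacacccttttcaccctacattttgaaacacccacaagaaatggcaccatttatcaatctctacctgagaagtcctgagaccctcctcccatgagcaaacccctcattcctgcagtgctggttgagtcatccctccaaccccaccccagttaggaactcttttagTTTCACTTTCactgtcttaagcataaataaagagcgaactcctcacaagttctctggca
Irf1, chr11:53769764-53770013, plus strand: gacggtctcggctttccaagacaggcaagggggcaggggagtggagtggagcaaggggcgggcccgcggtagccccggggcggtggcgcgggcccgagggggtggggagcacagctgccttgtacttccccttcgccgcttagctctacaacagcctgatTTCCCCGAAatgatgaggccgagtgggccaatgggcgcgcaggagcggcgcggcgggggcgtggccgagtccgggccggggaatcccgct
Overlapping matches were joined in capitals, as in Isg15, which holds 3. The ISRE letters were in 2.98% of 32851 windows of this length and the GAS letters in 7.02%. Of 6 members that rose and had a window, 4 held the ISRE letters and 2 the GAS letters, and of 7 that were called lower, 4 and 0. A member counted where any of its windows matched, whereas the shares are per window. Irf1 has another window, not printed, that held neither motif. A match describes the letters only.

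Rsad2, the antiviral enzyme viperin, was the only one of the 7 lower members that was stable: it read 22057 to 43978 units in blood (median 38316) and 2141 to 8881 in the fraction (median 3363), and fell by 5.41 ± 0.14 log2 (limma adjusted p = 7.2e-10). Its Cy3 difference was 0.37. Isg15, a ubiquitin-like modifier, read 1200 to 2120 units in blood and 402 to 2377 in the fraction, ranges that overlapped, and was −4.06 ± 0.14 log2 with quantiles and −0.26 unscaled. Irf7, a master regulator of type I interferon, was −3.65 with quantiles and 0.20 unscaled, and Ifit1 −2.82 and 1.52. Gbp2, an interferon gamma induced GTPase, read 92 to 198 units in blood and 18928 to 90734 in the fraction, and rose by 4.01 ± 0.25 log2 (limma adjusted p = 2.9e-07), with 2.17 in Cy3. Gbp3 rose by 2.61 ± 0.15 and Gbp4 by 1.87 ± 0.14, with Cy3 at −0.40 and 0.30. Irf1, a transcription factor induced by interferon gamma, rose by 2.19 ± 0.12, and Stat2, part of the type I interferon signal, by 1.42 ± 0.12. Oas2 (−0.23), Ifit2 (−0.35) and Ifit3 (−0.81) were not called.

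Glycolysis and hypoxia genes rose, 16 of 22 with 1 called lower, and 14 of the rises were stable. Among all genes, 25.4% were called higher and 17.5% stably so. Bnip3, a mitophagy receptor induced by low oxygen, read 22.5 to 65.5 units in blood and 5706 to 30782 in the fraction, and rose by 4.14 ± 0.13 log2 (limma adjusted p = 2.7e-09), with 0.23 in Cy3. Along the glycolytic path, Slc2a1, the glucose transporter GLUT1, rose by 3.34 ± 0.14, Hk2, hexokinase 2, by 4.23 ± 0.11, and Gpi1 by 2.56 ± 0.09. Tpi1 rose by 2.57 ± 0.10, Pgk1 by 3.57 ± 0.09 and Pgam1 by 4.02 ± 0.08. Ldha, the lactate dehydrogenase subunit, read 1259.5 to 2878 units in blood and 105036 to 279662 in the fraction and rose by 3.32 ± 0.07. Eno1 (0.98), Pdk1 (0.02) and Hk1 (−0.07) were not called. In Cy3, 7 of the 16 were called higher, among them Hk2 (1.82), whereas Ldha stood at −0.18 and Pgam1 at 0.29. Car9, carbonic anhydrase 9, was −2.61 with quantiles and −0.93 unscaled.

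Cell cycle genes rose in 17 of 27 cases, 15 stable, against 25.4% and 17.5% of all genes, with 1 called lower. The DNA replication licensing genes Mcm6, Mcm2 and Mcm7 rose by 2.44 ± 0.06, 1.63 ± 0.10 and 1.62 ± 0.09 log2, with Cy3 at 0.01, −0.04 and 0.45. Tyms and Rrm1, enzymes of nucleotide supply, rose by 2.64 ± 0.12 and 2.72 ± 0.08. Cdc20, an activator of the anaphase-promoting complex, read 21.5 to 46.5 units in blood and 3495 to 12704 in the fraction and rose by 3.30 ± 0.13, and Aurka, a mitotic kinase, was at least 5.48-fold higher, with Cy3 at 2.28 and 2.75. Ccna2, a cyclin, was −1.73 with quantiles and 1.12 under spike-in scaling. In Cy3, 7 of the 17 were called higher.

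Immediate-early and heat-shock genes, which respond within minutes to handling and stress in many cells, rose in 15 of 21 cases, all 15 stable, with 1 called lower. Among all genes, 17.5% were stably higher. Egr1, well above background on 4 blood arrays, was at least 36.6-fold higher (13598 to 59799 units in the fraction), Atf3 rose by 4.54 ± 0.14 log2, Klf4 by 3.90 ± 0.17 and Fos by 3.33 ± 0.23. Hspa1a, an inducible HSP70, rose by 3.62 ± 0.28. In Cy3, 9 of the 15 were called higher, with Atf3 at 6.45 and Fos at 0.50. Dissociation was done on tumours only, and its part in these values was not tested. Lysosome genes rose in 11 of 19 cases, 10 stable, against 25.4% and 17.5% of all genes, and 0 fell. Ctsl, cathepsin L, read 29 to 81 units in blood and 14249.5 to 128285 in the fraction and rose by 5.67 ± 0.12 log2 (1.39 in Cy3). Cd63, a lysosomal tetraspanin, rose by 4.76 ± 0.16 (5.48 in Cy3), Lgmn, legumain, by 2.83 ± 0.08, and Ctss, cathepsin S, by 2.77 ± 0.14. Ctsb (−0.04) and Lamp1 (0.19) were not called.

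Matrix proteases and their regulators rose in 9 of 11 cases, all stable, against 17.5% of all genes. The collagenase Mmp13 read 3 to 20 units in blood and 7300 to 87281 in the fraction, at least 29.3-fold higher. Mmp14, a membrane-bound protease, was at least 17-fold higher and Mmp12, the macrophage elastase, at least 9.05-fold. In Cy3, 7 of the 9 were called higher. Of 11 tested fibroblast and matrix genes 4 rose (3 stable) and 3 were called lower (0 stable), where 25.4% of all genes were called higher and 17.6% lower. Dcn, the matrix proteoglycan decorin, read 10 to 96 units in blood and 43856 to 212120 in the fraction and rose by 7.41 ± 0.25 log2 (5.22 in Cy3). Sparc, a matrix glycoprotein, was at least 5.7-fold higher, and Col1a1, a collagen I chain, read 8.75 to 83.8 and 654 to 8958 units and rose 4-fold with quantiles (−0.01 log2 in Cy3). Col3a1 (0.45) and Acta2 (−0.51) were not called, and Tagln, a smooth muscle protein, turned from −3.41 with quantiles to 0.76 unscaled. Of 5 endothelial genes tested, out of 13 listed, 3 were called lower, of which Vwf was stable, where 17.6% of all genes were called lower. Pecam1, which encodes CD31, read 43.5 to 92.4 units in blood and 65.7 to 456 in the fraction, −1.10 log2 with quantiles and 0.48 under spike-in scaling, and Esam turned from −2.15 to 0.79.

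Genes often used as references had no fixed direction. Actb, beta-actin, read 276 to 594 units in blood and 372 to 1012 in the fraction, −3.50 ± 0.11 log2 with quantiles and 0.72 unscaled, and in Cy3 it differed by −3.32 ± 0.10. Ribosomal protein genes were called higher in 14 of 24 cases with quantiles, against 25.4% of all genes, and 0 were stable. Their list median of 1.13 log2 became −0.17 under median scaling. Rps18 was 2.19 with quantiles and 0.02 under median scaling. Xist, expressed from the inactive X chromosome of females, rose by 1.74 ± 0.10, and 0 of 4 Y-linked genes reached the signal needed for testing.

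**Figure D4:**
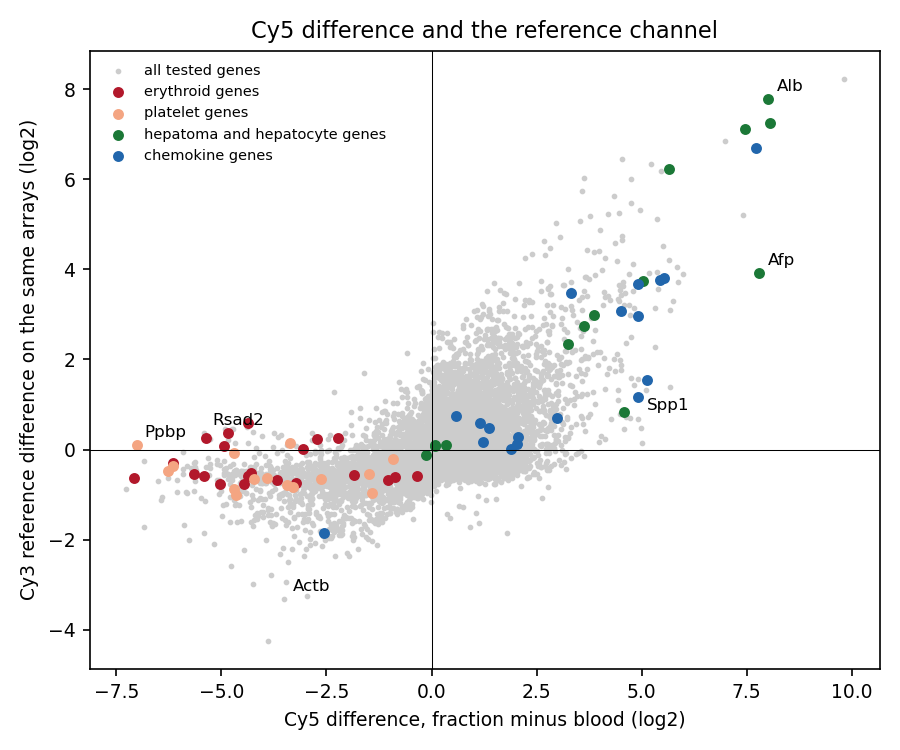
Cy5 difference (fraction minus blood, log2, x axis) against the difference of the Cy3 reference channel on the same arrays (log2, y axis), 1 point per gene, with members of 4 lists coloured. Erythroid and platelet genes have medians of −4.37 and −3.91 log2 in Cy5 and −0.558 and −0.635 in Cy3, whereas Alb (8.01 and 7.79) and other hepatoma genes are high in both channels.

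Of the 2217 genes called higher in Cy5, 721 were also called higher in Cy3 and 7 lower, and of the 1539 called lower, 298 were also lower in Cy3 and 3 higher, against 11.1% and 3.46% of all genes tested in Cy3. The channels share their arrays, and this overlap is a description. Among stable genes with a Cy3 difference under 2-fold, a rule composed after the values were seen, the largest rises with quantiles were Scd2, a fatty acid desaturase (5.01 ± 0.08 log2, Cy3 0.15), and Iigp1, an interferon-induced GTPase well above background on 2 blood arrays (at least 23.3-fold, Cy3 0.48). Spp1, Palmd (4.73), Anxa3, an annexin (4.63), Foxa2 and Adamdec1, a protease-like gene of macrophages (4.49, with blood near the floor), were among those that came next. Under the same rule 934 of the 8727 tested genes were higher and 217 lower. Lower were 18 of 21 erythroid, 10 of 15 platelet and 8 of 17 B cell genes. Higher were 8 of 22 glycolysis and hypoxia, 8 of 27 cell cycle, 6 of 21 immediate-early and heat-shock and 5 of 19 lysosome genes. Of 20 interferon-stimulated genes 5 were higher and 1 lower, and of 20 chemokine genes 4 were higher. Hepatoma genes gave 1, Foxa2. The rule uses Cy3 after quantile normalisation and the floor, so a gene can pass it although its Cy3 signal differed before scaling. Median Cy3 on blood and fraction arrays was 9.49 and 66.6 units for Foxa2, and 38.7 and 102 for Spp1. For Anxa3 it was 121 and 332, for Scd2 172 and 336, and for Ppbp, lower under the rule, 24799 and 28250.

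Among 1620 genes that were called higher and lay more than 2 log2 above the floor in the fraction, the median SD over the 8 fraction arrays was 0.24 log2, and 90% had an SD of at most 0.443. The widest spreads, picked after they were seen, were those of Lifr, a cytokine receptor subunit (SD 1.52 log2; 1020.5 to 10760 units), Itga1, a collagen-binding integrin (SD 1.46), and Itih2, a liver plasma protein (SD 1.38). Ambp, a liver plasma protein precursor (SD 1.23), Gzmc, a granzyme (SD 1.19), Klrc2, an NK receptor (SD 1.22), and Retnla, a macrophage product of alternative activation (SD 1.10; 1964 to 45827 units), followed. Whether arrays with more Afp had less of other cells' markers was asked of 6 genes, of which Csf1r and Col1a1 were measured above the floor on all 8 fraction arrays. Afp and Csf1r gave Pearson r = 0.241 (exact permutation p = 0.554, adjusted over both relations 0.554) and Spearman rho = 0.31 (exact permutation p = 0.462, adjusted 0.462). Without the 2 arrays farthest from the median of Afp (889 and 896) r was −0.334. Afp and Col1a1 gave r = 0.521 (exact permutation p = 0.181, adjusted 0.363) and rho = 0.548 (exact permutation p = 0.171, adjusted 0.342), and r = 0.206 without the same arrays. Neither relation passed the threshold, and the 8 arrays limit the precision of r.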

How the data were processed

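RNA of 8 blood and 8 infiltrating-fraction samples had been hybridised to 2-colour Agilent arrays. The deposited scanner files hold intensity values per spot and local background medians, made with Agilent Feature Extraction 10.5.1.1 per the file headers, whereas 9.1.3.1 is the version in the submitters' processing notes. The authors' ratios were not used. Background was subtracted from the Cy5 median intensity, flagged outlier spots were left out, and spots of a probe were averaged. Of 41174 probes, 23374 had 1 symbol through their RefSeq accession (assembly GRCm38.p6) and 17800 none. Arrays were quantile normalised, then floored at 363.3 units, the highest over the arrays of the 5th percentile of signals flagged well above background. A probe entered the test with 4 or more of a group's 8 arrays well above background. Of 26071 such probes, 11112 lay at the floor on all 16 arrays and were left out, a step added because they have no variance. A gene was its tested probe of highest mean, and 28 genes, none of them named here, had probes called in opposite directions. The floor makes a difference a bound where a group lies at it, and the SE and p-value then rest on the spread of the other group.

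Differences were fitted with limma 3.58.1 under R 4.3.3 with the number as a block and Benjamini-Hochberg adjustment over 14959 probes; tables were read with the package data.table (version 1.17.8). The rule fixed for this comparison asks for the block. The number of arrays limits the precision. The script was tested on simulated data. Named were the 8 largest rises and falls with signal in both groups, the 4 largest bounds each way, the 2 most changed called members of each list and 20 chosen genes, of which Ncr1, Gapdh and Mki67 were not tested; further list members were named after their values were seen. Some genes that the rule or the lists hold are not reported here singly; counts and medians include them. The 26 lists held 505 genes, 23 with no named probe, and 384 were tested. Members, lists and genes were chosen with earlier results of these data known. The rule of a call under 6 scalings, and the Cy3 limit, were added after the values were seen.

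Alternatives were normexp (offset 50), floors 2 times lower and higher, 5 other scalings, the ratio to Cy3, the scanner program's processed signal (an intensity deposited in the same files), other filters and probe rules, the slide as a block, each pair of slides alone, and leaving out each number.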

Additional observations from a re-analysis of the deposited data

Results flagged for a closer look

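Among 93 sets of 8 values (a named gene in 1 group, with at most 1 array at the floor), 4 held a value set apart from the other 7 by Dixon's criterion, and chance alone flags about 1 in 20 such sets. All are quantile-normalised log2 Cy5 values. Mt2, a metallothionein, was lowest in fraction 896 at 13.21 against 14.37 for the next array. Ms4a1 and Cd79b, both B cell genes, were highest in blood 889, at 14.62 and 14.73 against 13.95 and 14.16. Hba-a1 was highest in blood 898 at 18.69 against 18.52.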

How the results depend on the processing

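Scaling changed the counts most. Spike-in scaling called 8428 genes (7862 higher, 566 lower) and no normalisation 9589 (9253 and 336), against 3756. For the Cy3 channel, no normalisation gave 2628 (2555 and 73) and normexp 703 (576 and 127), against 1529. Leaving out each number gave 3705 to 3859 calls (2189 to 2280 higher, 1509 to 1579 lower), and 1447 to 1565 in Cy3 (1122 to 1185 and 325 to 380). Of the single-gene differences under all alternatives, 1712 kept direction and call, 39 lost the call, 3 gained it and 21 turned direction. Without normalisation H2-Oa was 0.66, Ccr7 1.05, Il7r 2.58, Hdc 2.68, Cma1 2.07, Il27 0.23, Tagln 0.76, Esam 2.20, Cd3e 1.05, Pecam1 1.78 and Actb 0.72. With spike-in scaling Il7r was 1.17, Hdc 1.26, Cma1 0.71, Esam 0.79 and Pecam1 0.48. As a ratio to Cy3, Ifng was −0.81, Atf3 −1.16, Cd63 −0.25 and Actb 0.0011, and with median scaling Rpl27 was −0.0522. Il27, Cma1 and Pecam1 also lost their calls under other settings. The cause of these turns was not tested. The relations of Afp turned sign without 896 for Csf1r (r −0.114; range −0.114 to 0.678) and without 889 for Col1a1 (r −0.0589; range −0.0589 to 0.701). Of list medians, 484 moved by less than the spread between pairs and 141 by more.

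Same-numbered arrays deviated together at r = 0.0282 to 0.175, 5 of 8 over 0.1, short of all 8, so the design does not show them to be paired. An array's own number was its best match for 6 of 8 blood and 7 of 8 fraction arrays, a hint of pairing from the data. The fit without the replicate block gave 3756 calls, the same genes, and changed no other call: 3757 genes passed 2-fold, so the fold limit and not the p-value set the count (6873 genes passed the p threshold with the block and 6848 without). Each slide holds 1 group; with the slide as a random block the consensus correlation was 0.0599. Signal limits the falls: genes dim in both groups were not tested.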
